A study of Mus musculus with 10 samples.

Results

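The genes examined were 10 that make up MHC class I antigen presentation, chosen by function from the 57180 genes of the RNA-seq table of mouse NSPCs. They are the heavy chain genes H2-K1, H2-D1 and H2-T23, the light chain gene B2m, the peptide transporter genes Tap1 and Tap2, the loading factor gene Tapbp, the immunoproteasome genes Psmb8 and Psmb9, and the activator gene Nlrc5. All 10 passed the filter on low counts. In the CUT&Tag table, 13 of 69418 regions had 1 of them as the assigned gene. These regions covered 9 of the 10 genes, and Psmb8 had none.

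The cells were neural stem and progenitor cells of the brain, untreated, either wild-type (WT) or Mina53-KO (KO). RNA was sequenced from 3 WT and 3 KO libraries. CUT&Tag, in which a transposase tethered by an antibody cuts nearby chromatin, was done on 2 WT and 2 KO libraries. The series concerns Mina53 as an enzyme that acts on an arginine mark of a histone, but what the antibody bound is not in the labels, nor are strain, age, brain region and the origin of the KO. No label ties the libraries to animals or cultures, so the p-values here reflect the spread among libraries, which may be technical.

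Riox2, the current symbol of the Mina53 gene, measured 17.2 to 19.96 counts scaled to the library total (CPM) in WT and 3.26 to 3.78 CPM in KO. The RNA libraries held 19923010 to 25939376 counts, and the CUT&Tag libraries 2913959 to 4038765 reads in regions. The share of RNA counts on mitochondrial genes was 2.31% to 2.68% in WT 1, KO 1 and KO 2 (the low class) and 3.52% to 5.71% in WT 2, WT 3 and KO 3 (the high class). This class was read off the counts and is not a label. For the members, KO against WT in RNA is given without and with it as a covariate.

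MHC class I molecules display peptides from a cell's own proteins to CD8 T cells. Proteasomes cut the proteins, the TAP transporter carries the peptides into the endoplasmic reticulum, and tapasin bridges the transporter to empty class I molecules, each made of a heavy chain and beta-2-microglobulin. Interferons induce the whole set, and Nlrc5 acts with the RFX and NF-Y complexes on an element of class I promoters that holds an X and a Y box.

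The promoters of H2-K1, H2-D1, B2m and Tap1 are shown because the first 3 share the layout of this element while only H2-K1 was called in the RNA comparison, and because Tap1 lacks that layout. Windows of 250 bases before the start site were found in RefSeq (GRCm38.p6) for 8 of the 10 genes. Where a gene had more than 1 window, the first listed was used. H2-K1 had 2, so its positions hold for 1 of its start sites. They lie at chr17:34000348-34000597 on the minus strand for H2-K1, chr17:35262844-35263093 on the plus strand for H2-D1, chr2:122147437-122147686 on the plus strand for B2m and chr17:34187306-34187555 on the plus strand for Tap1. Capitals mark matches, on either strand, to an interferon response element (GAANNGAAA, or the same with a further A before the free bases), to the NF-kB consensus, to TGACG, which occurs in X boxes, and to ATTGG, the core of the Y box.
H2-K1: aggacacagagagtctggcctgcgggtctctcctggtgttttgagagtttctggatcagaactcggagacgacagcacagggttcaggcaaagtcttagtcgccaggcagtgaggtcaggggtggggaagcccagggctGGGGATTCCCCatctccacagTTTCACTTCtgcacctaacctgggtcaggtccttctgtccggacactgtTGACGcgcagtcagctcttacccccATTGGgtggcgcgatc
H2-D1: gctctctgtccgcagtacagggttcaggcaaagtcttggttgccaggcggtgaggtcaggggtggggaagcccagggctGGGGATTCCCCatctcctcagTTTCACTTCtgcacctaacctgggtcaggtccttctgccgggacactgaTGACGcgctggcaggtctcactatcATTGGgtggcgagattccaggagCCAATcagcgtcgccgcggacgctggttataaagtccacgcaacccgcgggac
B2m: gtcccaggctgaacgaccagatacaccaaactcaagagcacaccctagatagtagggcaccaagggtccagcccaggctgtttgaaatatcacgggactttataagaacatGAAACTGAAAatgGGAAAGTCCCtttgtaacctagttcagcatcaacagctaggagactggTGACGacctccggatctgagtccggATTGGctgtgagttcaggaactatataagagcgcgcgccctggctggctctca
Tap1: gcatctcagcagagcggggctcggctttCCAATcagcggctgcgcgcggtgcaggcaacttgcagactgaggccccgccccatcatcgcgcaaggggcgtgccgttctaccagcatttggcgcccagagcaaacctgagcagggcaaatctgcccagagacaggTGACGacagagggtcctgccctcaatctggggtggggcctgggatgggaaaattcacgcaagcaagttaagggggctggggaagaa

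In H2-K1, H2-D1 and B2m, ATTGG follows TGACG after exactly 20 bases. This spacing was read off these windows and then searched for, and it occurs in 30 of 32851 RefSeq windows (0.0913%). A gene can have several windows: the 30 belong to 26 of 27025 genes, these 3 members included. The interferon response element was found in 4 of the 8 members (H2-K1, H2-D1, H2-T23 and B2m) and in 8.82% of all windows. The NF-kB consensus was found in H2-K1, H2-D1 and B2m and in 5.001% of all windows. TGACG was in 5 of the 8 and 17.8% of all, and ATTGG in 7 of the 8 and 33.8% of all. These are matches of letters, not measured binding. The H2-K1 and H2-D1 windows aligned over 190 bases, of which 174 (91.6%) were identical. Tap1 and Psmb9 point away from each other from start sites 226 bases apart, so their windows share 225 bases.

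Per length, B2m had the highest level, 79.7 to 106 RPKM over the 6 libraries (CPM per kilobase of the deposited gene length, RPKM). H2-K1 was next at 25.0 to 50.6 RPKM, and H2-D1 followed at 13.5 to 20.6 RPKM. The range of H2-D1 overlapped that of Tapbp (9.29 to 14.2 RPKM), which overlapped that of Tap1 (6.0 to 10.7 RPKM). Tap2 (2.77 to 4.79 RPKM) and H2-T23 (2.62 to 4.30 RPKM) overlapped as well, as did Psmb9 (1.22 to 2.09 RPKM) and Psmb8 (0.894 to 1.23 RPKM). Nlrc5 was lowest at 0.196 to 0.308 RPKM, from 30 to 60 counts per library.

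**Figure D1:**
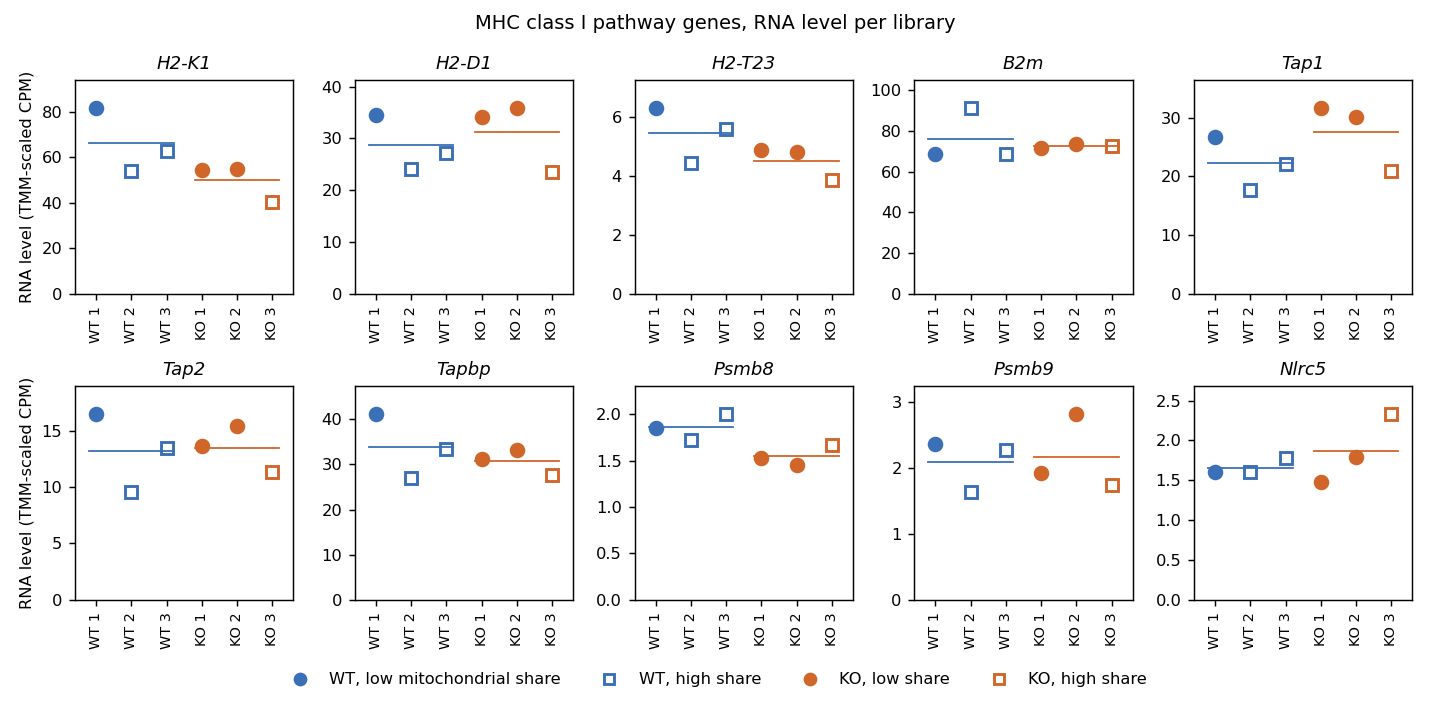
RNA level of each member in the 6 libraries, in TMM-scaled CPM on axes that start at 0; blue is WT, orange is KO, filled circles have a low and open squares a high mitochondrial share, and lines are group means. Within each class every KO library is below every WT library for H2-K1, H2-T23 and Psmb8. H2-D1, Tap1 and Tap2 separate by class.

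The first comparison asked whether class I genes differed between KO and WT NSPCs. H2-K1, a classical heavy chain gene, was the 1 member called, and only with the mitochondrial class in the model. H2-K1 (ENSMUSG00000061232) measured 81.9, 54.2 and 62.9 CPM in WT 1 to 3 and 54.4, 55.0 and 40.5 CPM in KO 1 to 3. The groups overlapped, since WT 2 lay at the level of KO 1 and KO 2. Without the covariate the log2 fold change, KO over WT, was -0.41 (SE 0.19, edgeR adjusted p = 0.391). With it H2-K1 fell by 0.56 on the log2 scale (SE 0.09, edgeR adjusted p = 0.00135), which is 1.47-fold lower.

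In the low class, WT 1 stood at 81.9 CPM and the KO mean at 54.7 CPM. In the high class, the WT mean was 58.5 CPM and KO 3 had 40.5 CPM. The log2 differences were -0.58 and -0.53, and KO was below WT without overlap in both. The same pattern was found for 3 of the 10 members, H2-K1, H2-T23 and Psmb8. Its share over all genes was not computed, and the high class has 1 KO library. The low class has 1 WT library: without WT 1 the log2 fold change was -0.53 and the call was lost (edgeR adjusted p = 0.0937), while it held without each of the other 5 libraries.

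None of the 10 members was called without the covariate, beside 3.43% of the 15298 genes tested. None was called with DESeq2 either, and none had an unadjusted p under 0.05 in edgeR, beside 13.7%. With the covariate 1 of 10 was called, beside 11.1% of all genes (5.18% lower in KO), so the share was near the background; 3 of 10 had an unadjusted p under 0.05, beside 22.7%. The median log2 fold change of the members was -0.02 without and -0.09 with the covariate, beside 0.01 and -0.00 over all genes.

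H2-D1, the other classical heavy chain gene, measured 34.6, 24.05 and 27.3 CPM in WT and 34.2, 36.0 and 23.5 CPM in KO. WT 1, KO 1 and KO 2 were its high libraries and the groups overlapped. Its log2 fold change was 0.12 (SE 0.20, adjusted p = 0.899) without and -0.05 (SE 0.09, adjusted p = 0.819) with the covariate. H2-T23 encodes the heavy chain of the nonclassical molecule Qa-1 and measured 6.33, 4.44 and 5.59 CPM in WT and 4.89, 4.82 and 3.85 CPM in KO. Every KO library was below the WT libraries of its class. Still, H2-T23 did not pass, at -0.27 (SE 0.20, adjusted p = 0.699) without and -0.38 (SE 0.16, adjusted p = 0.185) with the covariate. With the covariate but without WT 2 it did, at -0.46 (adjusted p = 0.0402).

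B2m, whose product pairs with these heavy chains, measured 68.6, 91.4 and 68.6 CPM in WT and 71.5, 73.4 and 72.8 CPM in KO. WT 2 was above all other libraries, which lay close together. The log2 fold change of B2m was -0.07 (SE 0.14, adjusted p = 0.918) without and -0.03 (SE 0.11, adjusted p = 0.922) with the covariate.

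Tap1, a subunit of the transporter, measured 26.8, 17.7 and 22.1 CPM in WT and 31.7, 30.01 and 20.9 CPM in KO. KO 1 and KO 2 were above all WT libraries and KO 3 lay among them. Its log2 fold change was 0.31 (SE 0.20, adjusted p = 0.649) without and 0.14 (SE 0.11, adjusted p = 0.516) with the covariate. Tap2, the partner subunit, measured 16.5, 9.54 and 13.5 CPM in WT and 13.6, 15.4 and 11.3 CPM in KO, within overlapping ranges. Tap2 had 0.03 (SE 0.22, adjusted p = 0.979) without and -0.10 (SE 0.14, adjusted p = 0.738) with the covariate. Tapbp, which encodes tapasin, measured 41.2, 26.9 and 33.4 CPM in WT and 31.2, 33.2 and 27.7 CPM in KO. All KO libraries of Tapbp lay inside the WT range. It did not pass, at -0.14 (SE 0.17, adjusted p = 0.864) without and -0.24 (SE 0.11, adjusted p = 0.202) with the covariate. With the covariate but without WT 2 it did, at -0.33 (adjusted p = 0.00127).

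Psmb8, a catalytic subunit of the immunoproteasome, measured 1.86, 1.73 and 2.01 CPM in WT and 1.53, 1.45 and 1.67 CPM in KO, from 31 to 52 counts per library. It was the 1 member of 10 whose groups did not overlap, beside 19.0% of all genes. The log2 fold change of Psmb8 was -0.26 (SE 0.21, adjusted p = 0.753) without and -0.23 (SE 0.24, adjusted p = 0.635) with the covariate. Psmb9, another such subunit, measured 2.36, 1.64 and 2.28 CPM in WT and 1.93, 2.83 and 1.75 CPM in KO, with its highest library in KO and its lowest in WT. Psmb9 had 0.05 (SE 0.27, adjusted p = 0.971) without and -0.07 (SE 0.25, adjusted p = 0.915) with the covariate. Nlrc5 measured 1.604, 1.603 and 1.77 CPM in WT and 1.48, 1.79 and 2.34 CPM in KO. KO 3 was its highest and KO 1 its lowest library, and the log2 fold change was 0.18 (SE 0.24, adjusted p = 0.883) without and 0.26 (SE 0.24, adjusted p = 0.591) with the covariate.

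**Figure D2:**
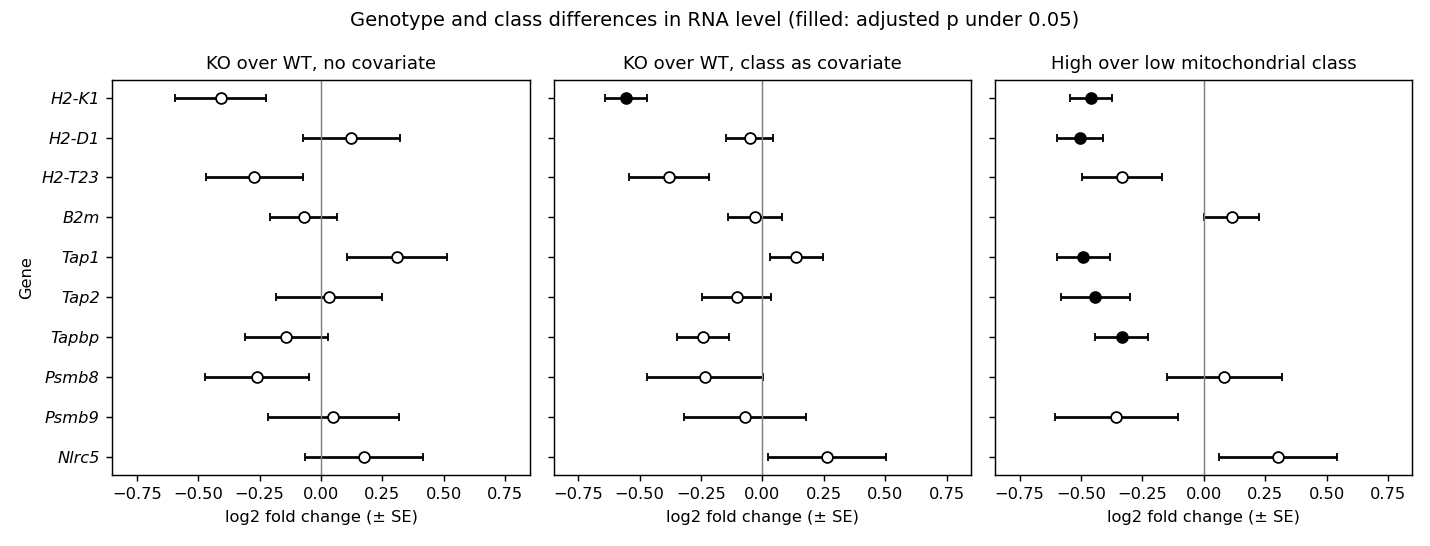
Log2 fold changes with their SE for the 10 members: KO over WT without (left) and with (middle) the mitochondrial class as a covariate, and the high over the low class (right). Filled points have an adjusted p under 0.05: none on the left, H2-K1 in the middle, and H2-K1, H2-D1, Tap1, Tap2 and Tapbp on the right.

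H2-K1 and H2-D1 belong to the same multigene family, and counting may have split shared reads between them. Their balance was looked at after their values had been seen. H2-K1 took 70.3%, 69.3% and 69.7% of the reads of both genes in WT 1 to 3, and 61.4%, 60.5% and 63.3% in KO 1 to 3. The groups did not overlap, and each group held libraries of both mitochondrial classes. The lowest bound of the 95% Clopper-Pearson intervals in WT was 67.1%, and the highest in KO was 65.6%; these intervals cover counting error only. There were 2.31 ± 0.0568 H2-K1 reads per H2-D1 read in WT and 1.61 ± 0.0994 in KO (SD, n = 3 each; two-sided exact permutation test p = 0.1, the smallest that 3 against 3 allow).

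**Figure D3:**
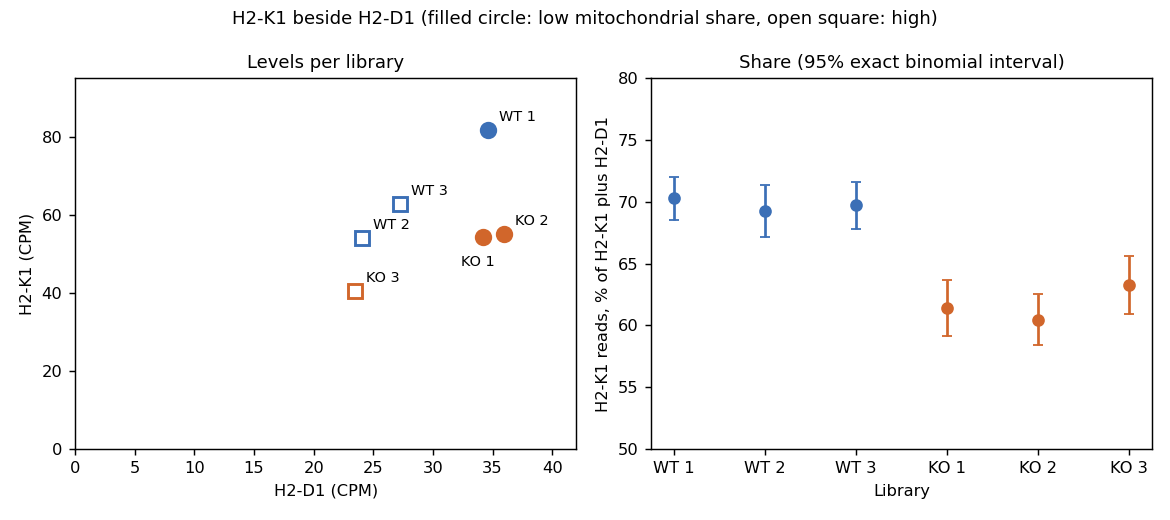
Left, H2-K1 against H2-D1 in TMM-scaled CPM for each library (blue WT, orange KO; filled circles low, open squares high mitochondrial share); right, H2-K1 reads as a percent of H2-K1 plus H2-D1 reads with 95% exact binomial intervals, on an axis from 50% to 80%. The WT libraries lie between 69.3% and 70.3% and the KO libraries between 60.5% and 63.3%.

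Taken as 1 feature, H2-K1 plus H2-D1 had a log2 fold change of -0.23 (edgeR adjusted p = 0.765) without and -0.39 (edgeR adjusted p = 0.0101) with the covariate. Both genes differ in sequence between mouse haplotypes, and the part of strain or read assignment in the H2-K1 value was not tested.

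The second comparison set the high against the low mitochondrial class, with the genotype in the model. Among the members 5 of 10 fell in the high class, beside 17.8% of all genes (34.9% called in either direction). H2-D1 fell by 0.50 on the log2 scale (edgeR adjusted p = 0.00345), Tap1 by 0.49 (0.00633) and H2-K1 by 0.46 (0.00330). Tap2 fell by 0.44 (0.0299) and Tapbp by 0.33 (0.0307). The class ranges did not overlap for H2-D1, Tap1 and Tap2, 3 of 10 beside 41.8% of all genes.

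The light chain gene did not pass: B2m had 0.11 (SE 0.11, adjusted p = 0.455). With the replicate number as a block it did, at 0.39 (edgeR adjusted p = 0.00369). Among same-numbered libraries the class differed only between WT 2 and KO 2. The class value under the block therefore depends on WT 2, the library with the highest B2m. Without the block, the genes that did not pass also included H2-T23 (-0.33), Psmb8 (0.08), Psmb9 (-0.36) and Nlrc5 (0.30). The median was -0.34 over the members and -0.00 over all genes. Other lists also held genes lower in the high class: 5 of 8 other proteasome subunits (median -0.33) and 7 of 15 neural stem and progenitor markers (median -0.25). Of 12 tested class I heavy chain genes outside the members, 2 were lower in the high class (median -0.15). Of 8 peptide loading and trimming genes 0 were lower and 3 higher. No member was called without WT 1 or without KO 3, and 3 were called without KO 1 or without KO 2. The class cannot be told apart from other differences between these libraries.

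The rest of the pathway was described from lists chosen by function. Of 18 further class I heavy chain genes 12 were tested and none was called without the covariate. There 3 had an unadjusted p under 0.05, beside 13.7% of all genes. H2-Q10 was lower in KO (log2 fold change -1.74, edgeR adjusted p = 0.0791). H2-M3 (0.99, edgeR adjusted p = 0.197) and H2-T10 (0.90, edgeR adjusted p = 0.161) were higher. With the covariate 6 of the 12 had such a p, beside 22.7%. WT and KO did not overlap for 5 of the 12, beside 19.0%. The 1 gene called with the covariate was H2-Q10, a nonclassical heavy chain gene. It fell from 0.823 ± 0.321 to 0.243 ± 0.00859 CPM (edgeR adjusted p = 0.0253), from 5 to 26 counts per library. H2-Q10 belongs to the multigene H2 family, and how reads shared between family members were counted is not known here. Of 8 other proteasome subunits tested, none was called without the covariate (0 with an unadjusted p under 0.05), and with it Psmb10, also an immunoproteasome subunit, fell by 0.45 on the log2 scale (edgeR adjusted p = 0.0220). Its groups overlapped, at 14.9 ± 4.24 CPM in WT and 12.8 ± 3.41 CPM in KO. Of 8 genes of peptide loading and trimming, Lnpep, an aminopeptidase, rose with the covariate by 0.38 (edgeR adjusted p = 0.00729), with 107 ± 26.3 CPM in WT and 119 ± 39.2 CPM in KO. H2-Q10 lost its call without WT 1 or any KO library (adjusted p 0.0872 to 0.405), as did Psmb10 (0.0508 to 0.304), and Lnpep without WT 1, KO 1 or KO 3 (0.0665 to 0.354). H2-Q10 also lost it with DESeq2 (adjusted p 0.0802), and Psmb10 and Lnpep with the share as a continuous covariate (0.144 and 0.288).

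None of the 21 regulators of class I transcription was called with edgeR in either fit, where 1 had an unadjusted p under 0.05 without and 4 with the covariate, beside 13.7% and 22.7% of all genes. None of the 3 tested MHC class II genes was called, and none had such a p in either fit. Of 24 tested interferon-induced genes, 1 rose and 1 fell without the covariate, and 2 rose and 2 fell with it, beside 3.43% and 11.1% of all genes called in either direction. WT and KO did not overlap for 9 of these 24 and for 9 of the 21 regulators, beside 19.0% of all genes. Gbp3, which encodes a guanylate-binding protein, rose from 8.57 ± 0.403 to 15.7 ± 1.14 CPM (edgeR adjusted p = 0.0112 without and 0.000226 with the covariate). Without the covariate its call was lost without KO 1, KO 2 or WT 3 (adjusted p 0.0545 to 0.0836). Ifi35 fell from 2.80 ± 0.512 to 1.26 ± 0.240 CPM (edgeR adjusted p = 0.0491 and 0.00616). Its call without the covariate was lost with each library left out (adjusted p 0.0912 to 0.195), and that with it without WT 1 (0.218) or KO 3 (0.0681).

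With the covariate, Gbp2, of the same family as Gbp3, rose from 1.53 ± 0.241 to 2.81 ± 0.476 CPM (edgeR adjusted p = 0.0204). Irgm1, an immunity-related GTPase gene, fell from 34.0 ± 3.03 to 25.5 ± 1.04 CPM (edgeR adjusted p = 0.0233). Gbp2 lost its call with DESeq2 (adjusted p 0.0521) and without WT 1, KO 2 or KO 3 (edgeR adjusted p 0.0922 to 0.355), and Irgm1 without WT 1 or any KO library (0.0727 to 0.477). The median of the interferon-induced genes was 0.03 without and 0.06 with the covariate.

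Other cell types were checked by their markers. Of 15 microglia and macrophage markers only Cd68 and Lyz2 were tested, and neither passed. Cx3cr1, C1qc, Trem2 and Itgam had 0 counts in all 6 RNA libraries, and the list summed to 2.11 to 2.42 CPM in WT and 1.87 to 2.57 CPM in KO. Of 10 endothelial markers 3 were tested, Cldn5 and Cdh5 had 0 counts throughout, and the list summed to 24.1 to 31.8 CPM in WT and 55.1 to 63.3 CPM in KO. Most of that sum was Flt1, a VEGF receptor gene, which rose from 25.9 ± 4.02 to 56.4 ± 4.12 CPM (edgeR adjusted p = 0.00577). Of 9 fibroblast and meningeal markers 5 were tested, Twist1 rose, Acta2 and Foxc1 fell, and the list summed to 30.5 to 36.2 CPM in WT and 17.9 to 20.8 CPM in KO. Most of it was Foxc1 (24.5 ± 3.96 CPM in WT and 13.6 ± 1.22 CPM in KO) and Acta2 (8.03 ± 0.841 and 3.94 ± 0.546 CPM). Twist1 had 1 to 22 counts per library. Of 10 neuron markers 9 were tested and Nefm, Nefl and Gap43 rose without the covariate and 6 rose with it. In each fit 3 of the 9 had a log2 fold change below 0. The list summed to 652 to 840 CPM in WT and 917 to 1122 CPM in KO. Most of this was Map2, at 641 ± 108 CPM in WT and 758 ± 147 CPM in KO. Map2 was called only with the covariate (edgeR adjusted p = 0.693 without and 0.00395 with it). All 15 neural stem and progenitor markers were tested, with sums of 7440 to 7758 CPM in WT and 7927 to 8961 CPM in KO. Without the covariate Vim, an intermediate filament gene, rose from 1989 ± 222 to 3219 ± 451 CPM (edgeR adjusted p = 0.0353) and Slc1a3, a glutamate transporter gene, fell from 2333 ± 87.7 to 1683 ± 98.5 CPM (edgeR adjusted p = 0.0402). With it Nes, Vim and Hes5 rose and Slc1a3 and Pax6 fell. The part of these levels in the H2-K1 value was not tested, and in bulk libraries fewer cells of a type and less RNA per cell cannot be told apart.

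The third comparison asked whether CUT&Tag signal at class I genes differed between KO and WT. None of the 13 regions was called, beside 0.00722% of 69209 regions tested with edgeR, none was with DESeq2, and none had an unadjusted p under 0.05, beside 5.35%. The Tap2 promoter region (chr17:34420827-34422301, GRCm39, coordinates as deposited) had the most signal, 203 and 201 CPM of reads in regions in WT and 196 and 194 CPM in KO. Both KO libraries lay just below both WT libraries (log2 fold change -0.05, SE 0.12, adjusted p = 0.973). The Tap1 promoter region (chr17:34406124-34406796) measured 26.5 and 34.6 CPM in WT and 33.7 and 35.6 CPM in KO, with overlap. Beside it, the Psmb9 region (chr17:34405870-34406069) measured 12.6 and 12.1 CPM in WT and 11.5 and 7.11 CPM in KO, both KO values being lower (log2 fold change -0.40, SE 0.38, adjusted p = 0.935).

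The B2m promoter region (chr2:121978045-121978850) measured 36.5 and 32.5 CPM in WT and 31.7 and 26.4 CPM in KO, without overlap (log2 fold change -0.25, SE 0.21, adjusted p = 0.934). The Tapbp promoter region (chr17:34134787-34135481), which had the smallest p of the 13, measured 47.2 and 36.7 CPM in WT and 41.0 and 27.6 CPM in KO, with overlap (log2 fold change -0.28, SE 0.19, adjusted p = 0.933). The authors marked a peak in all 4 libraries at 5 of the 13 regions, those at the Tap2, Tapbp and B2m promoters and both Tap1 regions.

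The H2-K1 region, at the start site (chr17:34219302-34219548), was weak and carried the authors' peak mark in 1 KO library only. It measured 12.9 and 13.1 CPM in WT and 14.6 and 10.97 CPM in KO, from 37 to 60 reads, and the WT values lay between the KO values. Its log2 fold change was -0.02 (SE 0.34, adjusted p = 0.996). With this SE, a difference as large as that in H2-K1 RNA was not detectable at this depth. The H2-D1 region (chr17:35485795-35486117) measured 13.9 and 16.6 CPM in WT and 16.6 and 19.6 CPM in KO (log2 fold change 0.24, SE 0.29, adjusted p = 0.943). The 3 H2-T23 regions had log2 fold changes of 0.25, 0.04 and -0.36, and the region in Nlrc5 had 0.27.

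**Figure D4:**
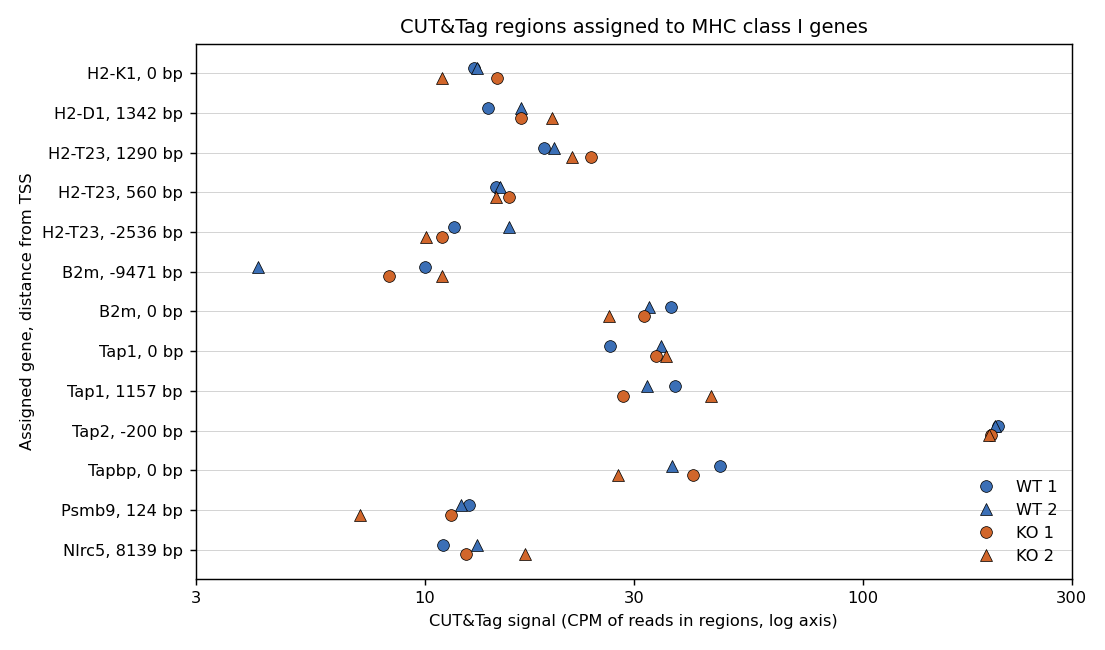
CUT&Tag signal of the 13 regions assigned to member genes, in CPM of reads in regions on a log axis. Labels give the deposited distance from a start site of the assigned gene, which can differ between regions of the same gene. Blue is WT, orange is KO, circles are replicate 1 and triangles replicate 2. The Tap2 region stands apart at 194 to 203 CPM.

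In 5 of the 13 regions WT and KO did not overlap, beside 34.7% of all regions, and 7 of 13 log2 fold changes were above 0, beside 50.6%. The median was 0.04 over the 13 and 0.01 over all regions. In the authors' deposited table these regions had log2 fold changes of -0.33 to 0.51, p-values of 0.124 to 0.875 and q-values of 1.

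Summed per gene, none of the 9 members with a region was called, beside 0.146% of 27449 genes tested with edgeR, none was with DESeq2, and none had an unadjusted p under 0.05, beside 6.78%. WT and KO did not overlap for 3 of the 9, beside 36.6%. The sum had a log2 fold change of -0.00 (SE 0.35) for H2-K1 and 0.26 (SE 0.30) for H2-D1. It was -0.09 (SE 0.19) for B2m, 0.14 (SE 0.15) for Tap1 and -0.03 (SE 0.09) for Tap2. The B2m sum joins the promoter region to a region at -9471 bp that lies in an intron of another gene. That region held 12 to 37 reads and had a log2 fold change of 0.42. Tapbp, with the smallest p of the sums, had -0.27 (SE 0.20, edgeR adjusted p = 0.828). The sums of H2-T23, Psmb9 and Nlrc5 had 0.04, -0.38 and 0.29.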

How the data were processed

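RNA-seq covered 3 WT and 3 KO libraries and CUT&Tag 2 of each, grouped by their titles. The authors deposited expected counts per gene (7.92% to 9.74% of values not whole), rounded here before testing, and whole counts per CUT&Tag region. Per the file headers, the region table also holds the authors' RPM, log2 fold changes, p-values and q-values, which were not used in any test. HISAT2, StringTie and GRCm39 are named in the submitters' processing notes; the counting tool, its strand setting and the peak caller are unknown here.

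Each assay was fitted over its whole table with edgeR 4.0.16 in R 4.3.3 (TMM, filterByExpr on the genotype design, robust glmQLFit, glmQLFTest), Benjamini-Hochberg adjustment over all tested features and a threshold of 0.05. The SE is the log2 fold change over the square root of F. Mitochondrial genes are the 37 whose symbols start with mt-. Alternatives included other scalings and filters, DESeq2 1.42.0, the mitochondrial share as a continuous covariate, a replicate block and each library left out. The fits were tried on simulated counts with planted changes larger than that of H2-K1, in features well above the count filter. Smaller changes and weaker features were not simulated.

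The members, lists, tests and naming rule were chosen with earlier results of these data known. All 10 members are named, and from the other lists the genes called. Neuron markers called only with the covariate are counted, and of these only Map2 is named. Uncalled genes that the rule picks by smallest p are covered by the counts of genes tested, except H2-M3, H2-T10, Cd68 and Lyz2, which are named.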

Additional observations from a re-analysis of the deposited data

How the results depend on the processing

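With the covariate H2-K1 was called in 10 of 10 other settings (log2 -0.61 to -0.39, edgeR or DESeq2 adjusted p up to 0.0101); 1 of these, H2-K1 and H2-D1 summed, was chosen after seeing the data. Leaving out 1 library gave 0 to 3 members called with the covariate and 0 to 5 between the classes; in the other 3 comparisons the count stayed 0 in every setting run. Whether replicate numbers pair the libraries is not known. Deviations of same-numbered RNA libraries correlated at 0.46, -0.37 and 0.27, and those of CUT&Tag at 0.02. These values cannot decide it. RNA deviations correlated positively between libraries of the same mitochondrial class and negatively between the others. With 2 CUT&Tag libraries per group, the deviations within a group mirror each other. With a replicate block the members called were 0 without and 2 with the covariate, 6 between the classes (the 5 and B2m), and 0 for regions and sums. Under the block, Tapbp joined H2-K1 with the covariate (-0.34), B2m became 0.0730, and Psmb8 between the classes -0.0216. Fits with both block and class leave little to measure the spread. Same-numbered libraries differ in class only at replicate 2, so the KO value in these fits rests on replicates 1 and 3. The block is also 1 of the 10 other settings counted for H2-K1. The direction also turned for H2-D1 with the continuous share (0.0208), for the H2-K1 region and sum with library totals (0.00867 and 0.00797), and for the sums within 1000 bp of H2-K1 (0.0952) and Tap2 (0.0622). Directions that turned when 1 library was left out had these log2 ranges: for RNA without the covariate, B2m -0.15 to 0.0709, Lnpep -0.16 to 0.29, Nlrc5 -0.0302 to 0.30, Psmb10 -0.41 to 0.0259, Psmb9 -0.19 to 0.18, Tap2 -0.16 to 0.23, Tapbp -0.29 to 0.0244. Ranges for RNA with the covariate, B2m -0.14 to 0.0758, H2-D1 -0.13 to 0.0170, Lyz2 -1.34 to 0.0317, Psmb9 -0.22 to 0.0379. Ranges for CUT&Tag regions, B2m region at -9471 bp -0.0643 to 1.202, H2-K1 region at 0 bp -0.25 to 0.17, H2-T23 region at 560 bp -0.0194 to 0.0846, Tap1 region at 1157 bp -0.30 to 0.37. Ranges for CUT&Tag sums, B2m -0.25 to 0.0932, H2-K1 -0.24 to 0.19, H2-T23 -0.0355 to 0.12, Tap1 -0.0538 to 0.32. Over all genes, calls without the covariate numbered 525, and 145 to 506 with 1 library left out and 229 to 958 in other settings. With the covariate they numbered 1695, and 415 to 3885 and 1575 to 4216. Between the classes they numbered 5346, and 32 to 6969 with 1 library left out. Regions called numbered 5, and 1 to 15 and 4 to 9; sums 40, and 7 to 52 and 5 to 40. Low counts limit Psmb8, Psmb9, Nlrc5 and the weaker regions.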
